A study of Homo sapiens with 15 samples.

Results

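The genes described here encode the proteins of the mitochondrial ribosome. They were taken by symbol, as every protein-coding gene of the count table named MRPL or MRPS with a number, together with DAP3 and PTCD3. There were 80 such genes among the 62754 genes counted (49 MRPL, 29 MRPS, DAP3 and PTCD3), spread over 21 chromosomes. The cells were MCF10A, a non-tumorigenic line of human mammary epithelial cells, labelled wild type and all grown in the same supplemented medium apart from glutamine. They were kept in limiting glutamine, at 0.04 mM, 0.12 mM, 0.20 mM or 0.28 mM, or in full medium with 2.5 mM, with 3 libraries in each of the 5 groups. Total RNA was depleted of ribosomal RNA and sequenced, so the values are transcript levels of 1 cell line and say nothing of protein. The symbol MRPS36 belongs to a gene whose product is now placed in the 2-oxoglutarate dehydrogenase complex, and it is kept because the rule takes it.

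The mitochondrial ribosome translates the few mRNAs that the mitochondrial genome encodes, all of them for subunits of the respiratory chain and of ATP synthase. Its rRNAs are made inside the organelle, whereas its proteins are encoded in the nucleus, made in the cytosol and imported. Some of these proteins descend from proteins of the bacterial ribosome, and others are found only in mitochondria. In proliferating epithelial cells glutamine is a main carbon source for the mitochondrial citric acid cycle and a nitrogen source for nucleotides and amino acids.

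Promoters of these genes are known for short sites of the factors NRF1, GABP (an ETS factor) and YY1, which are linked to nuclear genes for mitochondrial proteins. The promoters below belong to the 4 genes with the smallest adjusted p at 0.04 mM and are shown to let the sites be seen beside the changes. Each is the 250 bases upstream of the first listed RefSeq start (GRCh38.p14), in the direction of transcription. The MRPL17 window is chr11:6683341-6683590, minus strand, and that of MRPS34 is chr16:1773135-1773384, minus strand. The MRPS9 window is chr2:105037819-105038068, plus strand, and that of MRPL20 is chr1:1407294-1407543, minus strand. Capitals mark matches on either strand to the NRF1 core, searched as GCGCA and GCGC with any 1 base between them, and to CCGGAAG for ETS factors.
MRPL17: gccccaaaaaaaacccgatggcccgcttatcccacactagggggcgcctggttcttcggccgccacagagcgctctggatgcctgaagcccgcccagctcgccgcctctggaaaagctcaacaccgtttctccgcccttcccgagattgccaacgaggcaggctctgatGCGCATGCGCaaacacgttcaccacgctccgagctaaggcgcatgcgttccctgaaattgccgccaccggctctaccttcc
MRPS34: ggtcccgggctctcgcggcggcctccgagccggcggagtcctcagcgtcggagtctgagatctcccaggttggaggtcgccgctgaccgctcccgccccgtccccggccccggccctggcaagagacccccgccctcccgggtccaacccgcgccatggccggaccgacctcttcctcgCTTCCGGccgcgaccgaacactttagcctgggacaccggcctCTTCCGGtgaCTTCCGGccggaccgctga
MRPS9: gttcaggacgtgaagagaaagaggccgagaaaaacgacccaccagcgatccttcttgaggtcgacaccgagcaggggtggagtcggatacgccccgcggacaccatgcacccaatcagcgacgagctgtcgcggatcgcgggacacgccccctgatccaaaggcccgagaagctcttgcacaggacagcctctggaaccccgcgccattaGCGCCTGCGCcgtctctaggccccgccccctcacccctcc
MRPL20: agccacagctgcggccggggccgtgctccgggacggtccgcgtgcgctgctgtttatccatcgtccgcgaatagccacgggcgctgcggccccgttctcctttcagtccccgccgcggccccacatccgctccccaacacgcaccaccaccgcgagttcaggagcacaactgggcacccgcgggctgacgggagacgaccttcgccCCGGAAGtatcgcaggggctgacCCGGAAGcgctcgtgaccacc
MRPL17 and MRPS9 each held 1 NRF1 match and no ETS match, while MRPS34 held 3 ETS matches and MRPL20 held 2, with no NRF1 match in either. The windows of MRPL11 and MRPL4, next by adjusted p and not printed, held no match for NRF1, ETS factors or YY1. A RefSeq promoter was matched for 72 of the 80 genes. The ETS letters were present in 31.9% of these 72 windows, against 8.82% of all 27305 gene promoters and 11.8% of the protein-coding ones. The NRF1 letters were in 11.1% of the 72, against 5.53% of all promoters and 7.65% of the protein-coding ones. The YY1 letters AAGATGGC were in 6.94%, against 1.37% of all and 1.39% of protein-coding promoters. The TATA box letters TATAAA were in 4.17% of the 72, against 11.1% of all and 9.23% of protein-coding promoters. The GC box letters GGGCGG were in 56.9%, against 42.3% of all and 56.0% of protein-coding promoters. The CCAAT letters were in 27.8% of these windows, 33.0% of all promoters and 34.5% of the protein-coding ones. For the E-box letters CACGTG these shares were 9.72, 6.49 and 7.84%. No window of these genes held overlapping matches of different motifs among the 7 searched. Among the 19 genes that fell at 0.04 mM and had a window, 5 held the ETS letters (26.3%), 3 the NRF1 letters (15.8%) and 0 the YY1 letters, so the ETS share among them was not above that of all 72 windows. A match is a string of letters, and no binding was measured.

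The libraries held 3704170 to 13361406 gene counts each, of which the 80 genes together took 0.375 to 0.484%. The shallowest library was replicate 3 at 0.04 mM. All 11 basal mammary markers were counted in every condition, with a summed level of 16150 to 26880 CPM (counts scaled to a common library size with TMM factors). Of these, ITGB4 (log2 fold change 0.28, SE 0.084, adjusted p = 0.0222) and LAMB3 (log2 fold change 0.51, SE 0.086, adjusted p = 0.000153) rose at 0.04 mM and the other 9 did not pass. Of 6 luminal markers 4 were tested and 1 fell at 0.04 mM, KRT8 (log2 fold change -0.20, SE 0.068, adjusted p = 0.0444), with a summed level of the list of 479 to 592 CPM at 0.04 mM and 486 to 609.6 CPM in full medium. The immune marker CD3E and the endothelial marker CDH5 had no count. Of 6 fibroblast markers 2 were tested and both rose at 0.04 mM, with a summed level of the list of 50.4 to 61.0 CPM at 0.04 mM and 33.3 to 45.7 CPM in full medium and LUM at 0, and of 4 endothelial markers PECAM1 was tested and rose, with a summed level of the list of 5.84 to 12.2 CPM at 0.04 mM and 3.77 to 5.68 CPM in full medium. The part of these markers in the results was not tested. In bulk RNA, fewer cells of a kind and less RNA per cell cannot be told apart. Libraries that share a replicate number deviated together from their group means in all 30 such pairs. Changes are therefore given from an edgeR fit of all 15 libraries with the replicate number as a block, over 13828 genes, with "rose" and "fell" kept for Benjamini-Hochberg adjusted p under 0.05. Without that block edgeR called 0 genes of the mitochondrial ribosome in every comparison, and each call below rests on the pairing. Hardly any gene of the 13828 passed without the block. Against full medium 0 of all genes fell, and 0.0434, 0, 0.0145 and 0% rose at the 4 concentrations from low to high. At an unadjusted p under 0.05 without the block, 21, 13, 16 and 5 of the mitochondrial ribosomal protein genes were lower than in full medium, in the same order, and 0 were higher. Of all genes 11.6, 8.03, 10.2 and 4.45% were past that p in either direction. DESeq2 without the block called 1, at 0.04 mM, and its share of all genes is not given here. Of the 80 genes, 78 had enough counts to be tested. MRPL53 had 0 counts in all 15 libraries, which allows at most 0.0221 CPM over their 135756266 gene counts. MRPS24 had 2 to 12 counts per library, with a mean of 0.753 CPM. Their exons overlap those of another annotated gene, over 45.2% of the length for MRPL53 (CCDC142) and 23.2% for MRPS24 (URGCP-MRPS24), and whether the counting left out shared reads is not given in the sources used here.

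Levels between the genes were compared per kilobase of transcript, over all 15 libraries. MRPL51 was highest with 163 CPM per kb, followed by MRPL49 with 139.5 and MRPS27 with 118, and then by MRPL3 with 110.1 and MRPL37 with 106. The lowest tested genes were MRPL38 with 1.04, MRPL46 with 2.33 and MRPS17 with 2.77 CPM per kb. The counted level per length thus differed widely between genes whose proteins belong to the same particle. MRPL38, with 41.1% of its exonic length shared with other genes, had 6 to 34 counts per library, so its level carries a large counting error. Pseudogenes were listed for 37 of the genes, and none of these genes had pseudogene counts above 10% of its own; MRPS31 had the highest share, 4.3%.

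Summed over the 80 genes, the level was lower in every limited condition on average than in full medium. The 3 libraries summed to 3921, 4006 and 3943 CPM at 0.04 mM, to 4102, 3945 and 4190 CPM at 0.12 mM, to 4044, 4388 and 3965 CPM at 0.20 mM and to 4006, 4371 and 3925 CPM at 0.28 mM, against 4232, 4794 and 4366 CPM in full medium (replicates 1, 2 and 3 in each group). The libraries at 0.04 and 0.12 mM lay below all 3 of full medium, while at 0.20 and 0.28 mM replicate 2 lay within the range of full medium. Within each replicate number the sum in full medium was the highest of the 5. At 0.04 mM it was 7.35, 16.4 and 9.7% below full medium in replicates 1, 2 and 3. The full-medium library of replicate 2 was the highest of all 15.

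**Figure D1:**
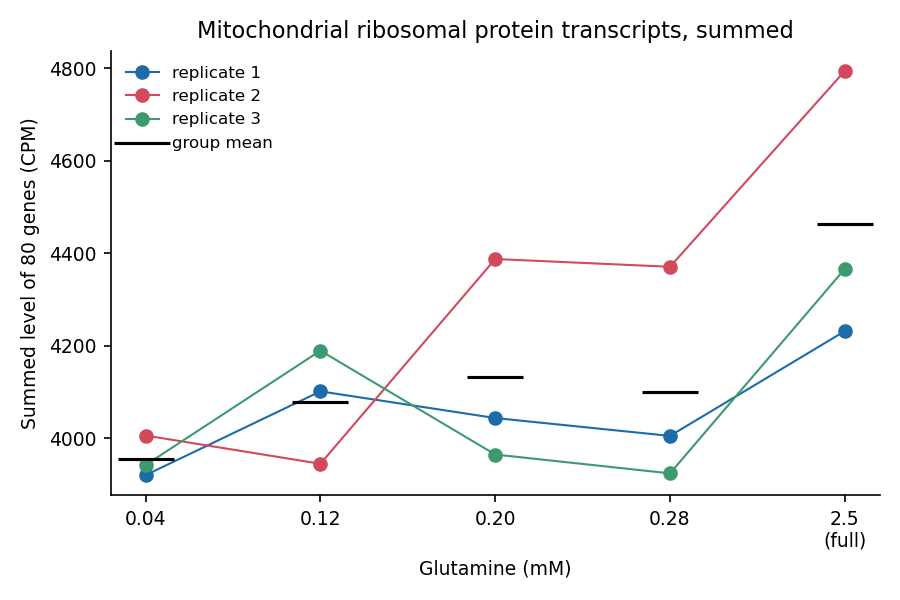
Summed level of the 80 mitochondrial ribosomal protein genes in CPM (vertical axis, which does not start at 0) by glutamine concentration, drawn as 5 evenly spaced groups, with 1 point per library, lines joining libraries of the same replicate number and black bars for group means. Full medium holds the highest library of every replicate number, with 4794 CPM in replicate 2.

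At 0.04 mM glutamine 20 of the 78 tested genes fell and 0 rose relative to full medium, against 6.23% of all 13828 genes that fell and 7.21% that rose. The median log2 fold change was -0.20 over the 78 genes and 0.01 over all genes, and 67 of the 78 were below 0. For 30 of the 78 all 3 libraries at 0.04 mM lay below all 3 of full medium, against 8.21% of all genes, and 0 lay above, against 6.95%. Of the tested genes for proteins of bacterial descent 15 of 45 fell, with a median of -0.24, and of those for mitochondria-specific proteins 5 of 32, with a median of -0.12. Whether these shares differ was not tested. By subunit, 14 of 50 tested genes of the large subunit and 6 of 27 of the small subunit fell. Leaving out 1 library at a time gave 6 to 21 calls, with 6 without replicate 2 and 13 without replicate 1 at 0.04 mM, and 9 without replicate 2 of full medium. Shares of all genes with a library left out are not given, here or at the other concentrations, so such counts have no background beside them. With spike-in scaling, which moved the median of all genes by less than 0.01 here, 6 fell, against 1.62% of all genes under that scaling.

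**Figure D2:**
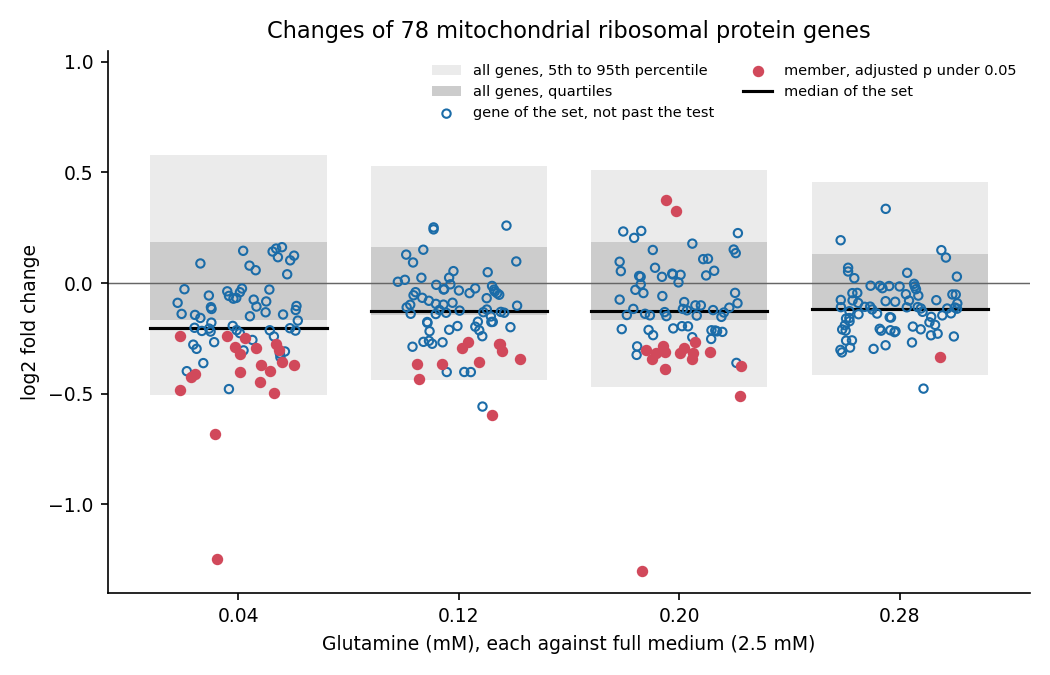
Log2 fold change of each of the 78 tested genes (points, spread sideways for visibility) at the 4 limiting glutamine concentrations (horizontal axis, in mM) against full medium, with filled red points for adjusted p under 0.05, black lines for the median of the 78, and grey bands for all 13828 genes. The medians lie at -0.20, -0.13, -0.13 and -0.12, and red points number 20, 11, 17 and 1.

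The smallest adjusted p at 0.04 mM was that of MRPL17 (ENSG00000158042, chr11:6680385-6683340), a bacterial-type protein of the large subunit (gene positions are from RefSeq on GRCh38.p14). Its levels were 78.1, 64.2 and 61.9 CPM at 0.04 mM, against 102, 102 and 80.5 CPM in full medium (log2 fold change -0.48, SE 0.081, adjusted p = 0.00016). In between it averaged 73.7 ± 11.2 CPM at 0.12 mM, 76.4 ± 13.7 at 0.20 mM and 78.9 ± 11.6 at 0.28 mM (SD, n = 3), so that the group means ordered by concentration while neighbouring groups overlapped. MRPS34 (ENSG00000074071, chr16:1771895-1773134), a mitochondria-specific protein of the small subunit that in mouse is needed for the stability of the small-subunit rRNA, had 93.9, 92.3 and 78.1 CPM at 0.04 mM, against 117, 127 and 109 CPM in full medium (log2 fold change -0.41, SE 0.075, adjusted p = 0.000354). All 3 libraries at 0.04 mM lay below those of full medium.

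MRPS9 (ENSG00000135972, chr2:105038069-105099960), whose bacterial counterpart reaches the P-site tRNA, had 34.9, 35.2 and 33.2 CPM at 0.04 mM, against 42.4, 49.6 and 50.8 CPM in full medium (log2 fold change -0.45, SE 0.10, adjusted p = 0.00273). MRPL20 (ENSG00000242485, chr1:1401909-1407293), the counterpart of a bacterial protein needed early in assembly of the large subunit, had 55.2, 37.3 and 53.2 CPM at 0.04 mM, against 76.8, 68.8 and 55.6 CPM in full medium (log2 fold change -0.49, SE 0.11, adjusted p = 0.00284). The groups did not overlap for either gene, although the highest library of MRPL20 at 0.04 mM lay just below the lowest of full medium. MRPL11 (ENSG00000174547, chr11:66435075-66438848), at the base of the stalk that receives translation factors, had 50.6, 45.3 and 45.4 CPM at 0.04 mM, against 58.4, 61.4 and 64.1 CPM in full medium (log2 fold change -0.37, SE 0.093, adjusted p = 0.0072). MRPL4 (ENSG00000105364, chr19:10251951-10260055), which lines the exit tunnel of the nascent chain, had 88.9, 87.6 and 75.1 CPM at 0.04 mM, against 113, 105 and 97.5 CPM in full medium (log2 fold change -0.32, SE 0.080, adjusted p = 0.00721). Neither gene overlapped between the groups. Of all 20 genes that fell at 0.04 mM, only MRPL17, MRPS34, MRPS9 and MRPL4 stayed past the threshold with any 1 library left out. Each of the other calls, here and below, was lost in at least 1 of the 6 such fits. MRPL16, MRPL24 and MRPS7 passed in only 1 of them, and MRPL49 and MRPS15 in 2.

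**Figure D3:**
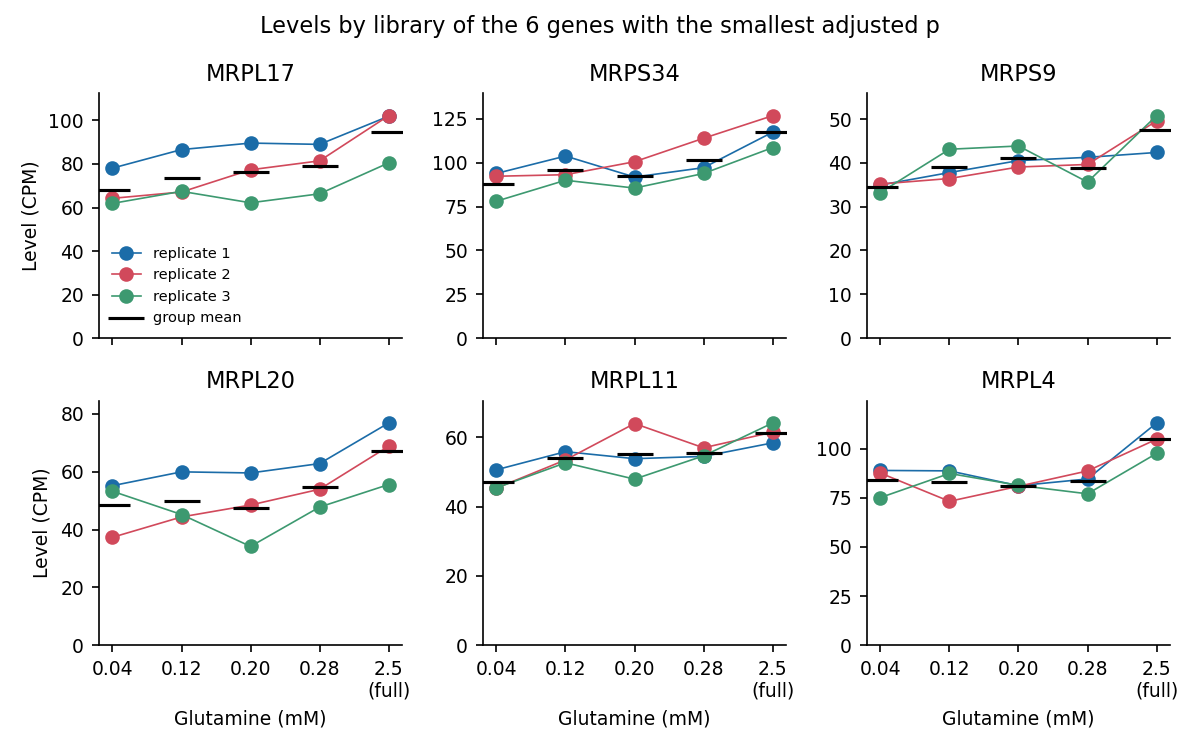
Level in CPM of MRPL17, MRPS34, MRPS9, MRPL20, MRPL11 and MRPL4 (vertical axes from 0) by glutamine concentration, drawn as 5 evenly spaced groups, with 1 point per library coloured by replicate number and black bars for group means. For each gene the points at 0.04 mM lie below those of full medium, and MRPL4 is at a like level in all 4 limited groups, 83.9 ± 7.60, 83.1 ± 8.58, 81.1 ± 0.242 and 83.4 ± 5.90 CPM against 105 ± 7.74 CPM in full medium (SD, n = 3 each).

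Around the stalk, MRPL12, which binds translation factors and also the mitochondrial RNA polymerase, averaged 9.10 ± 2.67 CPM at 0.04 mM and 14.3 ± 2.78 CPM in full medium (log2 fold change -0.68, SE 0.19, adjusted p = 0.017). Its groups overlapped, with a decrease in each of the 3 replicate pairs, and 68.2% of its exonic length is shared with another annotated gene. MRPL10, which anchors MRPL12, averaged 37.1 ± 0.831 CPM at 0.04 mM and 42.5 ± 2.42 CPM in full medium and did not pass (log2 fold change -0.20, SE 0.099, adjusted p = 0.182). Near the peptidyl transferase centre, MRPL2 had the largest fitted change, from few counts: 24, 7 and 6 counts at 0.04 mM, against 56, 33 and 23 counts in full medium, or 2.24, 1.07 and 1.62 CPM at 0.04 mM against 5.17, 3.56 and 2.97 CPM in full medium (log2 fold change -1.25, SE 0.34, adjusted p = 0.0121). MRPL16, which sits near the A site, fell as well (log2 fold change -0.25, adjusted p = 0.0331), and MRPL14 fell by 0.30 (adjusted p = 0.00973). MRPL3, also close to that centre, averaged 171 ± 23.3 CPM at 0.04 mM and 174 ± 29.7 CPM in full medium (log2 fold change -0.03, adjusted p = 0.831). MRPL24, a protein near the tunnel exit, averaged 88.9 ± 7.44 CPM at 0.04 mM and 105 ± 6.69 CPM in full medium (log2 fold change -0.24, adjusted p = 0.0437).

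Of the genes classed as mitochondria-specific in the large subunit, MRPL40, MRPL49, MRPL58 and MRPS18A fell, with log2 fold changes of -0.43, -0.30, -0.40 and -0.36. MRPL55, classed here with the proteins of bacterial descent, also fell (log2 fold change -0.40). MRPL58, a peptidyl-tRNA hydrolase built into the ribosome, had 26.1, 37.0 and 30.0 CPM at 0.04 mM, against 43.4, 38.6 and 38.5 CPM in full medium (log2 fold change -0.40, SE 0.11, adjusted p = 0.0145). MRPL40 had a lower level in 2 of the 3 replicate pairs and a higher one in the remaining pair. MRPL44, which carries a ribonuclease III-like fold, had 43.0, 45.2 and 43.8 CPM at 0.04 mM, against 50.4, 50.8 and 50.5 CPM in full medium, groups that did not overlap, and did not pass (log2 fold change -0.20, SE 0.089, adjusted p = 0.126). MRPS30, which despite its name sits in the large subunit, averaged 76.9 ± 4.81 CPM at 0.04 mM and 74.9 ± 10.5 CPM in full medium (log2 fold change 0.06, adjusted p = 0.701).

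The small subunit had 5 bacterial-type proteins that fell, MRPS2, MRPS7, MRPS9, MRPS11 and MRPS15, with log2 fold changes from -0.45 to -0.24. MRPS7, which organises the head of the subunit in bacteria, had 74.5, 75 and 73.5 CPM at 0.04 mM, against 84.3, 90.0 and 88.9 CPM in full medium (log2 fold change -0.24, SE 0.076, adjusted p = 0.033). MRPS12, a protein of the decoding centre, averaged 54.1 ± 6.33 CPM at 0.04 mM and 64.3 ± 9.01 CPM in full medium and did not pass (log2 fold change -0.24, SE 0.10, adjusted p = 0.111). DAP3, a GTP-binding protein of the head that was first described in cell death, averaged 134 ± 12.3 CPM at 0.04 mM and 137 ± 4.03 CPM in full medium (log2 fold change -0.04, adjusted p = 0.76). PTCD3, a pentatricopeptide repeat protein near the mRNA entry, averaged 74.5 ± 8.18 CPM at 0.04 mM and 70.5 ± 15.5 CPM in full medium (log2 fold change 0.10, adjusted p = 0.467). The small subunit thus held genes that passed beside genes such as DAP3 whose fitted change was within 1 SE of 0.

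Human cells have 3 counterparts of the bacterial protein S18. In the split by descent above, MRPS18C was counted with the proteins of bacterial descent, and MRPS18A and MRPS18B with the mitochondria-specific ones. MRPS18A, the one placed in the large subunit, had 26.9, 24.1 and 26.2 CPM at 0.04 mM, against 35.5, 30.5 and 33.3 CPM in full medium (log2 fold change -0.36, SE 0.11, adjusted p = 0.0206). MRPS18B averaged 61.9 ± 2.12 CPM at 0.04 mM and 68.7 ± 10.9 CPM in full medium (log2 fold change -0.14, SE 0.088, adjusted p = 0.313), and MRPS18C averaged 18.1 ± 2.65 CPM at 0.04 mM and 23.2 ± 3.17 CPM in full medium (log2 fold change -0.31, SE 0.14, adjusted p = 0.149). MRPS18A was the only one of them to pass, and whether the 3 changes differ from each other was not tested; MRPS18A and MRPS18C share 47.0 and 40.2% of their exonic length with other genes.

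At 0.12 mM 11 of the 78 genes fell and 0 rose, against 3.9% of all genes that fell and 4.41% that rose, and the median log2 fold change was -0.13. The groups did not overlap for 13 lower genes, against 6.66% of all genes, and for 1 higher gene, against 5.53%. The genes that fell were MRPL4, MRPL10, MRPL12, MRPL14, MRPL16, MRPL17, MRPL20, MRPL55, MRPS7, MRPS15 and MRPS34. MRPL17 had the smallest adjusted p, with 86.6, 67.1 and 67.4 CPM at 0.12 mM, against 102, 102 and 80.5 CPM in full medium (log2 fold change -0.37, SE 0.079, adjusted p = 0.00316). These groups overlapped, although each replicate pair was lower at 0.12 mM. Only 1 gene passed without replicate 2 at 0.12 mM, 5 passed without replicate 2 of full medium, and 1 passed when these 2 groups were fitted alone. Shares of all genes in these fits are not given here. With spike-in scaling, which moved the median of all genes by -0.18, 22 genes fell, against 8.17% of all genes under that scaling, and the median of the 78 relative to that shift was -0.14.

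At 0.20 mM 15 genes fell, against 7.15% of all genes, and 2 rose, against 7.67% of all genes, with a median of -0.13. For 19 genes all libraries at 0.20 mM lay below those of full medium, against 8.4% of all genes, and for 0 they lay above, against 7.15%. MRPL20 had the smallest adjusted p, with 59.6, 48.5 and 34.2 CPM at 0.20 mM, against 76.8, 68.8 and 55.6 CPM in full medium (log2 fold change -0.51, SE 0.11, adjusted p = 0.00145). MRPL4 had 81.1, 80.8 and 81.3 CPM at 0.20 mM, against 113, 105 and 97.5 CPM in full medium (log2 fold change -0.37, SE 0.078, adjusted p = 0.00147). The values of MRPL4 did not overlap, whereas those of MRPL20 did, with each replicate pair lower at 0.20 mM. MRPL2, MRPL10, MRPL14, MRPL17, MRPL24, MRPL28, MRPL34, MRPL49, MRPL55, MRPS2, MRPS7, MRPS11 and MRPS34 also fell, with log2 fold changes of -1.30 for MRPL2 and -0.39 to -0.27 for the others. The pair that rose was MRPL1, the counterpart of a mobile bacterial stalk protein that meets the exiting tRNA, and MRPL50, a mitochondria-specific protein. MRPL1 had 21.7, 34.7 and 24.8 CPM at 0.20 mM, against 12.7, 30.0 and 21.6 CPM in full medium (log2 fold change 0.37, SE 0.12, adjusted p = 0.0323), and MRPL50 had 33.5, 45.1 and 39.7 CPM at 0.20 mM, against 27.1, 35.0 and 31.8 CPM in full medium (log2 fold change 0.33, SE 0.096, adjusted p = 0.0189). Both overlapped between groups, were higher in each replicate pair and lost their call when 1 library was left out. MRPL4, MRPL20, MRPL24, MRPS2, MRPS7 and MRPS34 passed with any 1 library left out; 8 genes in all passed without replicate 1 and 11 without replicate 2 at 0.20 mM, and 3 with spike-in scaling, under which 2.025% of all genes fell.

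At 0.28 mM, the mildest limitation, MRPL4 alone fell, with 84.6, 88.7 and 77.0 CPM at 0.28 mM, against 113, 105 and 97.5 CPM in full medium (log2 fold change -0.34, SE 0.078, adjusted p = 0.0202), and 0.846% of all genes fell, while 0 of the 78 and 1.23% of all genes rose. The median log2 fold change of the 78 genes was still -0.12, with 69 of them below 0, against 0.00 over all genes. The groups did not overlap for 14 lower genes, against 4.95% of all genes. The call of MRPL4 was lost without replicate 1 or 3 at 0.28 mM or replicate 2 of full medium, and 6 genes passed without replicate 1 of full medium. MRPL4 was the 1 gene that passed at all 4 concentrations, in comparisons that share the 3 libraries of full medium. Of its exonic length 21.4% is shared with other annotated genes, and how reads there were counted is not given in the sources used here.

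Between limited media the differences were smaller. The comparison of 0.04 with 0.28 mM came from the fit of all 15 libraries, so full medium entered its estimate of the spread and its replicate block. Only the slope below left full medium out. At 0.04 against 0.28 mM, edgeR called 0 of the 78 genes, against 0.0434% of all genes, and DESeq2 called 0; at an unadjusted p under 0.05 there were 11 lower and 1 higher, against 9.02% of all genes in either direction. All libraries at 0.04 mM lay below those at 0.28 mM for 9 genes, against 3.3% of all genes. The median log2 fold change was -0.07 over the 78 genes and 0.00 over all genes. The slope over log2 glutamine across the 12 limited libraries likewise gave 0 calls in edgeR and in DESeq2. There edgeR called 0 of all 13631 genes. At an unadjusted p under 0.05, 13 of the 78 genes had a positive and 0 a negative slope, against 7.7% of all genes in either direction. The median slope of the 78 was 0.03 log2 units per doubling of glutamine, and within replicates 1, 2 and 3 it was 0.0115, 0.0552 and 0.0150. With the spike-in scaling the median between 0.04 and 0.28 mM was 0.05, that of all genes was 0.13, and the difference between these medians was -0.08.

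The changes were related to the GC content of the transcripts. Across the 78 genes, Spearman's rho between change and GC content was -0.63 at 0.04 mM, -0.64 at 0.12 mM, -0.74 at 0.20 mM and -0.45 at 0.28 mM, against -0.22, -0.22, -0.45 and -0.13 across the 13534 tested genes with a known GC content; the genes share libraries and the 4 values share full medium. At 0.04 mM, 18 of the 39 genes with a GC content above 48.9%, the median of the set and a split chosen after seeing the data, fell, with a median log2 fold change of -0.28, against 2 of the 39 at or below it, with a median of -0.08. At 0.20 mM 14 of the GC-richer genes fell, with a median of -0.22, against 1 of the others, which had a median of 0.03. Of all genes tested, whatever their GC content, 6.23% fell at 0.04 mM and 7.15% at 0.20 mM. The share among equally GC-rich genes outside the set is not given, so these counts do not show a trait of the set. With the offset described below, 7 of the GC-richer genes fell at 0.04 mM and 3 at 0.20 mM, against 2 and 1 of the others. MRPL1 and MRPL50, which rose at 0.20 mM, have GC contents of 39.1 and 35.0%. The set as a whole was not GC-rich, with a median of 48.9% against 49.2% for all tested genes, but its transcripts were short, with a median of 1168 against 2431 bases. Transcript length had a weaker relation to the change across the 78 genes, with rho of 0.24, 0.06, 0.21 and -0.06 at the 4 concentrations from low to high.

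**Figure D4:**
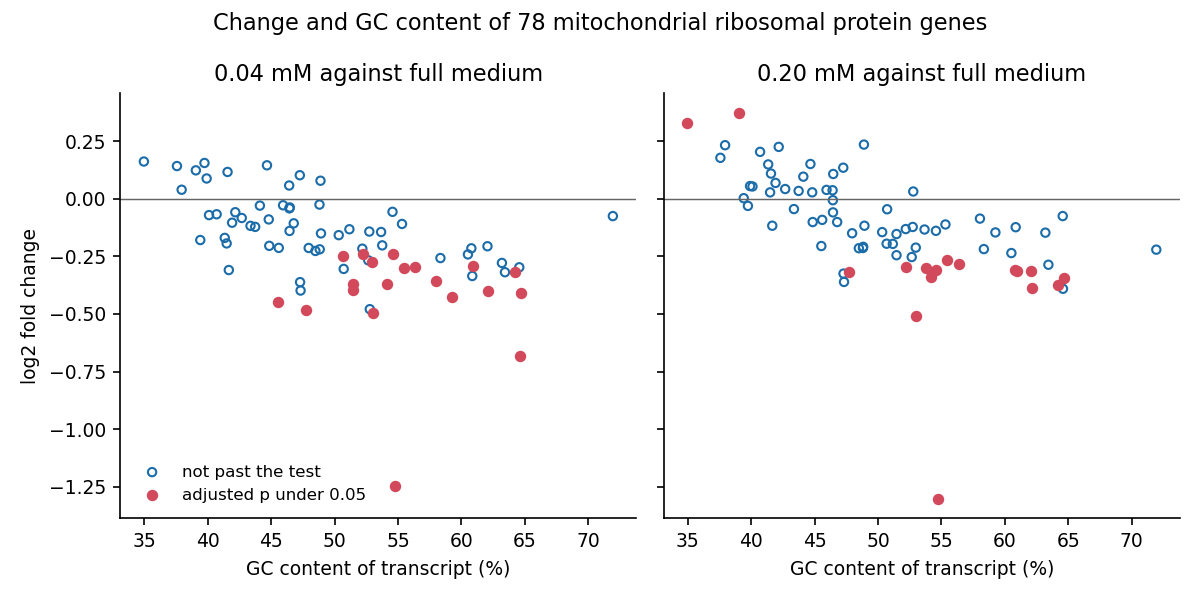
Log2 fold change against full medium (vertical axis) and GC content of the transcript in percent (horizontal axis) for the 78 tested genes, at 0.04 mM (left) and 0.20 mM (right), with filled red points for adjusted p under 0.05. In both panels the points descend to the right, with Spearman's rho of -0.63 and -0.74.

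When GC content and length were entered as an offset in the same fit with the block, 9 genes fell at 0.04 mM, with a median of -0.13, and 4 at 0.20 mM, with a median of -0.09. The share of all genes that fell with the offset is not given here, so these counts have no background beside them. The 9 genes at 0.04 mM were MRPL2, MRPL4, MRPL11, MRPL12, MRPL17, MRPL20, MRPS9, MRPS11 and MRPS34. The change of MRPL17 was -0.48 without and -0.47 with the offset, that of MRPS9 -0.45 and -0.43, and that of MRPS34 -0.41 and -0.30. Those of MRPL24, MRPL49 and MRPL14 came to -0.12, -0.15 and -0.18 and no longer passed. Neither MRPL1 nor MRPL50 passed at 0.20 mM with the offset. The part of GC content in these changes was not tested further.

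**Figure D5:**
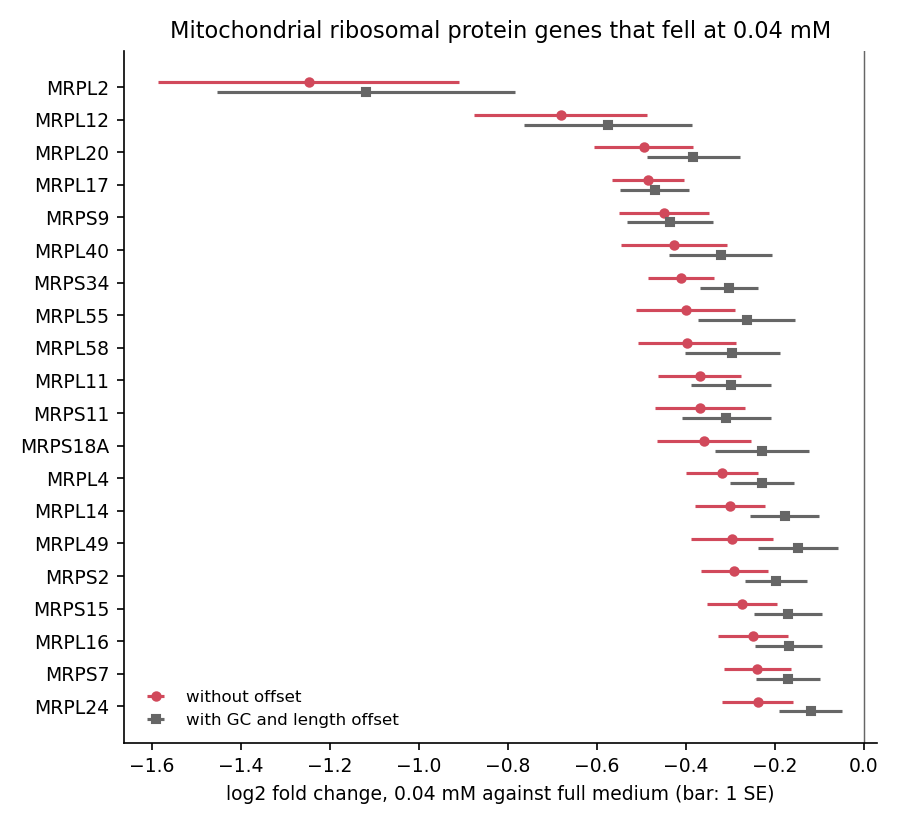
Log2 fold change at 0.04 mM against full medium, with bars of 1 SE, of the 20 genes that fell, without (red circles) and with (grey squares) an offset for GC content and length. Grey squares lie nearer 0 than red circles for all 20, by little for MRPL17 and MRPS9, which have GC contents of 47.7 and 45.5%.

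Other proteins of the organelle's translation were taken from lists. At 0.04 mM 6.23% of all genes fell and 7.21% rose, and no list was tested against these shares. Of 3 ribosomal proteins whose symbols the rule does not take, AURKAIP1 fell (95.4 ± 10.5 CPM at 0.04 mM and 114 ± 9.86 CPM in full medium; log2 fold change -0.25, SE 0.073, adjusted p = 0.0173), while GADD45GIP1 and CHCHD1 did not pass. Of 33 tested factors for ribosome assembly and rRNA modification, 6 fell and 0 rose, with a median of -0.12. Among them were C1QBP, a multifunctional matrix protein (log2 fold change -0.29, SE 0.064, adjusted p = 0.00217), RPUSD3, a pseudouridine synthase family member (log2 fold change -0.49, SE 0.11, adjusted p = 0.00252), and DHX30, an RNA helicase of the mitochondrial RNA granule (log2 fold change -0.30, SE 0.067, adjusted p = 0.00286). Of 16 translation factors 2 fell, the recycling factor MRRF (log2 fold change -0.34, SE 0.092, adjusted p = 0.012) and the elongation factor TUFM (log2 fold change -0.19, SE 0.061, adjusted p = 0.0295). Of 12 tested regulators of mitochondrial transcription and biogenesis, the coactivators PPRC1 (log2 fold change -0.37, SE 0.068, adjusted p = 0.000396) and PPARGC1B (log2 fold change -0.25, SE 0.076, adjusted p = 0.0277) fell, and NRF1 (log2 fold change -0.23, adjusted p = 0.227) and YY1 (0.12, adjusted p = 0.224) did not pass.

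Among the mRNAs that the mitochondrial ribosome translates, several rose at 0.04 mM. Of the 13 mitochondrially encoded mRNAs 6 rose and 0 fell, with a median log2 fold change of 0.37, against 7.21% of all genes that rose. The largest of these was MT-CYB, encoding cytochrome b, with 1389 ± 265 CPM at 0.04 mM and 848 ± 336 CPM in full medium (log2 fold change 0.75, SE 0.10, adjusted p = 1.5e-05). Mitochondrial rRNA, a target of the depletion, took 2.97% of counts in replicate 3 at 0.04 mM and 1.62% in replicate 3 at 0.12 mM, against at most 0.402% in every other library. Without these 2 libraries, a setting chosen after seeing the data for the mRNAs, 4 of the 13 rose, with a median of 0.27, and MT-CYB had a log2 fold change of 0.64 (SE 0.10, adjusted p = 0.000209). Without them 20 of the 78 mitochondrial ribosomal protein genes passed at 0.04 mM, with a median of -0.21. The shares of all genes without these 2 libraries are not given here.

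Of the 72 genes with a promoter, 20 (27.8%) had the start of another protein-coding gene on the opposite strand within 1000 bases upstream, against 10.3% of 15843 protein-coding genes. MRPL49, which fell at 0.04 mM, starts 49 bases from FAU, the gene of a ubiquitin-like fusion with a protein of the cytosolic small subunit, which fell too (log2 fold change -0.30, SE 0.088, adjusted p = 0.0186). Of the exonic length of MRPL49, 12.2% is shared with FAU and SYVN1. Its call held in 2 of the 6 fits with 1 library left out. MRPS11 and MRPL46 face each other over 320 bases, and MRPS11 fell while MRPL46 had a log2 fold change of -0.02 (adjusted p = 0.976) from 9 to 32 counts per library. MRPL27 starts 45 bases from EME1, a subunit of a DNA structure-specific endonuclease, which fell (log2 fold change -1.04, SE 0.20, adjusted p = 0.000803), while MRPL27 had -0.22 (adjusted p = 0.158). Among the 20 neighbours of these genes 3 fell (EME1, FAU and MRPS11) and 0 rose at 0.04 mM, against 6.23 and 7.21% of all genes. MRPS11 is itself in the set, and MRPS11 and MRPL46 each count as the neighbour of the other.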

How the data were processed

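RNA of 15 libraries of MCF10A cells was counted per gene. The authors deposited raw counts for 62754 genes and 92 ERCC spike-ins, and these were used unchanged. Libraries were made with a ribosomal RNA depletion kit, per the labels' protocols, and the build is GRCh38.p14, per the submitters' processing notes. Not given in the sources used here are the aligner, the counting rule and its use of strand. Depth was 3704170 to 13361406 gene counts, which sets the precision of each value.

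The planned test was edgeR 4.0.16 (R 4.3.3): filterByExpr (minimum count 10, minimum total 15; 13828 genes), TMM factors and 1 quasi-likelihood model with a term for each group over the 15 libraries, with Benjamini-Hochberg adjusted p under 0.05 over all genes tested. Replicate numbers pair the libraries: all 30 same-number pairs correlated above 0.1 (r 0.184 to 0.489) once group means were removed, against -0.406 to 0.0549 for different numbers. The fit with this block is therefore printed. What a number stands for is not given in the sources used here. The labels do not say whether replicates came from separate cultures, so p-values measure the spread between these libraries, which may be technical. Fits with and without the block were also run on simulated counts that held replicate effects by construction. That run therefore cannot show whether the block is right for these data.

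CPM values use TMM-scaled library sizes. Transcript length (median over basic transcripts), GC content and exonic overlap came from GENCODE 29, and promoters from RefSeq. Alternatives were DESeq2 1.42.0, its size factors, spike-in scaling, other count filters, the compared groups alone, single libraries left out, and a GC and length offset (splines of 4 df). The genes, lists and tests were chosen with earlier results of these data known. Named are all genes past the threshold with the block, the 3 highest and 3 lowest per length, and 15 genes by role, with values per library for the 6 smallest adjusted p at 0.04 mM; in other lists, up to 4 genes by smallest adjusted p. Exceptions chosen after their values were seen are EME1, FAU, MRPL37, MRPL46 at its neighbour, MRPS31, MRPS36 and NRF1 and YY1.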

Additional observations from a re-analysis of the deposited data

How the results depend on the processing

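All 49 single calls made with the replicate block were lost without it: edgeR called 20, 11, 17 and 1 of the 78 genes at the 4 concentrations from low to high with the replicate block, and 0 in each comparison with no replicate block, where DESeq2 called 1 at 0.04 mM. Without the block edgeR called at most 0.0434% of all genes in any comparison. No call changed its direction under any alternative run, and 3 genes at 0.04 mM (MRPL17, MRPS34 and MRPS9) passed under every alternative with the block. Spike-in scaling gave 6, 22 and 3 calls at 0.04, 0.12 and 0.20 mM, where 1.62, 8.17 and 2.025% of all genes fell. Its medians were -0.32 at 0.12 mM, -0.18 at 0.20 mM, -0.25 at 0.28 mM, 0.049 at 0.04 against 0.28 mM and -0.0044 for the slope, with the median of all genes moved by -0.18, -0.04, -0.13, 0.13 and -0.03. At 0.04 against 0.28 mM the median of the 78 minus that of all genes was -0.08 with spike-in scaling, and no gene was called there. The GC and length offset gave 9, 4 and 2 calls at 0.04, 0.20 and 0.28 mM, with a median of -0.092 at 0.20 mM. Without replicate 3 in all groups, which leaves fewer libraries, 8, 4, 6 and 0 genes were called at the 4 concentrations from low to high. At 0.12 mM 1 gene was called from the compared groups alone. At 0.28 mM 2 were called with the filter at 5 CPM, with DESeq2, and without the 2 libraries over 1% mitochondrial rRNA. The slope over all 15 libraries, which adds full medium, gave 22 calls. Shares of all genes are given here only for edgeR with and without the block and for spike-in scaling.

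With 1 library left out, calls ranged from 6 to 21 at 0.04 mM, 1 to 15 at 0.12 mM, 8 to 19 at 0.20 mM and 0 to 6 at 0.28 mM, and stayed at 0 between limited media. Medians ranged from -0.23 to -0.15 at 0.04 mM, -0.18 to -0.06 at 0.12 mM, -0.17 to -0.080 at 0.20 mM and -0.18 to -0.087 at 0.28 mM, from -0.10 to -0.04 at 0.04 against 0.28 mM, and from 0.02 to 0.03 for the slope. Apart from the settings' own construction, the cause of these moves was not tested. Intervals and p-values cover the spread between libraries, and genes with few counts, such as MRPL2, MRPL38 and MRPL46, are limited by depth.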
